A study of Mus musculus with 12 samples.

Results

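The 9 genes described here belong to the Notch pathway and were taken by symbol from a table of 55291 gene symbols. They are the receptors Notch1, Notch2 and Notch3, the ligands Dll1 and Jag1, and the targets Hes1, Hey1, Hey2 and Heyl. The table came from RNA sequencing of wild-type MC3T3-E1 cells, an established mouse preosteoblast line that lays down bone-like matrix in culture, so all libraries share 1 cell line. In one arm the cells differentiated in interferon beta of the mouse (IFN, one of the type I interferons), which the labels give at 50 mg/L once differentiation began, and in the control arm they differentiated without it. The time points were days 0, 14 and 21 in each arm, and every one of the 6 groups had 2 libraries. The labels call all 12 libraries differentiated, place day 0 at its induction, and leave unsaid whether the IFN day 0 cells had met IFN. They also do not say that the 2 libraries of a group came from separate cultures, so the spread behind each p below may be technical. In the main fit this spread is pooled over all 6 groups. Between the 2 libraries of a group the median SD of log2 CPM was 0.08 to 0.11 in IFN and 0.24 to 0.44 in control.

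Notch receptors are single-pass membrane proteins that are activated by ligands on a neighbouring cell. Binding leads to cleavage of the receptor and release of its intracellular domain, which enters the nucleus and acts with the DNA-binding protein RBPJ and a Mastermind co-activator. The best known direct targets encode repressors of the Hes and Hey families, and in the osteoblast lineage Notch signalling is known as a brake on differentiation in precursors.

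Of these genes, 6 were counted in every library, with at least 38 counts each, and entered the test. The other 3, Hey1, Hey2 and Heyl, had at most 6 counts in any library. Library totals ran from 29772425 to 38908453 counts. In control day 0 replicate 1 the annotated ribosomal RNA gene CT010467.1 stood at 21084 CPM (counts scaled to library size), against 99.3 to 8633 CPM elsewhere. A list of 7 endoplasmic reticulum stress genes summed to 31866 CPM in control day 21 replicate 2, against 1154 to 2758 CPM elsewhere. A list of 8 hypoxia genes summed to 7158 CPM in control day 14 replicate 1, against 1462 to 3477 CPM elsewhere. The 4 interferon-response genes Irf7, Isg15, Ifit1 and Rsad2 summed to 28.6 to 39.9 CPM in IFN and 9.85 to 23.7 CPM in control libraries at day 0. At day 14 their sum was 2042 to 2088 CPM with IFN and 10.4 to 47.1 CPM in control, and at day 21 it was 1226 to 1288 CPM with IFN and 48.4 to 58.4 CPM in control. Osteoblast markers (Runx2, Sp7, Alpl, Col1a1, Ibsp and Bglap) summed to 1195 to 9850 CPM over the 12 libraries, most of it from Col1a1 at 1083 to 9729 CPM.

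The promoter windows of 3 genes are shown first. They belong to the target gene that carries the RBPJ letters and to the 2 genes called lower than at day 0. These were Dll1 in control and Notch3 in the IFN arm at day 14. Each is a 300-base window around a RefSeq transcription start (GRCm38.p6, minus strand, given 5′ to 3′ along the gene). Capitals mark matches on either strand to GTGGGAA, the core that RBPJ recognises, or to CACNAG, the N-box bound by Hes repressors.
Hey2, chr10:30842734-30843033: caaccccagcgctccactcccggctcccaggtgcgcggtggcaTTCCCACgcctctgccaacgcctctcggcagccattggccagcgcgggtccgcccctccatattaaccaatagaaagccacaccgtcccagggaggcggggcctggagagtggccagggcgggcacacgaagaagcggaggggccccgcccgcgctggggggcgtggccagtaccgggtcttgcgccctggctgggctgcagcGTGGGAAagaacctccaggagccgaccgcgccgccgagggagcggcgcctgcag
Dll1, chr17:15376883-15377182: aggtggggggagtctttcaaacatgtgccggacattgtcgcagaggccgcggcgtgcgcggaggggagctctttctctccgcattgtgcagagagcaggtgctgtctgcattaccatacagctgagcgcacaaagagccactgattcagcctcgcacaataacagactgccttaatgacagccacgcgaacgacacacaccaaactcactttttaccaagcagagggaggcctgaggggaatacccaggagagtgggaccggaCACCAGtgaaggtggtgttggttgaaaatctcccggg
Notch3, chr17:32166841-32167140: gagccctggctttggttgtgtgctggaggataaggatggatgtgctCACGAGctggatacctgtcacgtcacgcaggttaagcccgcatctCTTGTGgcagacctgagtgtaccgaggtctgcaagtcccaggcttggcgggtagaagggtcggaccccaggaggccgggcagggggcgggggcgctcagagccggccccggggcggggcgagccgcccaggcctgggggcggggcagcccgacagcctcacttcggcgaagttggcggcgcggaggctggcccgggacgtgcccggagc
In the Hey2 window the RBPJ core matched at -207 to -201 on the opposite strand and at -4 to 3 on the gene's own strand, counting the start base as 1. Windows were matched for 6 of the 9 genes, 7 windows in all with a second one for Dll1, and GTGGGAA occurred in the Hey2 window alone among them. Hes1, Hey1 and Heyl were not matched. The same letters occurred in 6.38% of 32851 mouse promoter windows of this length. The N-box matched once in the Dll1 window shown, at 14 to 19, and at -204 to -199 and -159 to -154 in that of Notch3. The second Dll1 window, chr17:15375774-15376073, matched neither motif. The Dll1 window shown lies upstream of the GENCODE bounds of the gene, 15367354 to 15376872. Notch1 had 3 N-box matches, a pair of which are the same palindrome read on both strands, and Notch2 had 1. This short motif occurred in 42.5% of all windows. A match describes letters in the window and is not evidence that a factor binds there.

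Levels of different genes were compared per kilobase of merged exons, after scaling for library size (RPKM). Notch2 was at 18.4 ± 1.62 RPKM (SD over 12 libraries), Jag1 at 15.9 ± 6.62 RPKM and Hes1 at 15.1 ± 6.73 RPKM. Notch3 stood at 7.84 ± 3.04 RPKM, Notch1 at 6.07 ± 1.71 RPKM and Dll1 at 1.64 ± 1.18 RPKM. The SDs span all 6 groups, and those of Notch2, Jag1 and Hes1 overlap. The Hey genes lay far lower, at 0.0155 RPKM for Hey1, 0.00372 RPKM for Heyl and 0.00162 RPKM for Hey2. Among the further targets of the pathway list, Hes6 was at 7.35 RPKM, Hes7 at 0.212 RPKM, Hes5 at 0.0183 RPKM and Nrarp at 0.0104 RPKM, and RBPJ itself (Rbpj) was at 45.1 RPKM. The 3 receptors, both ligands and 1 of the 4 Hes and Hey targets were thus measured well above the depth limit.

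**Figure D1:**
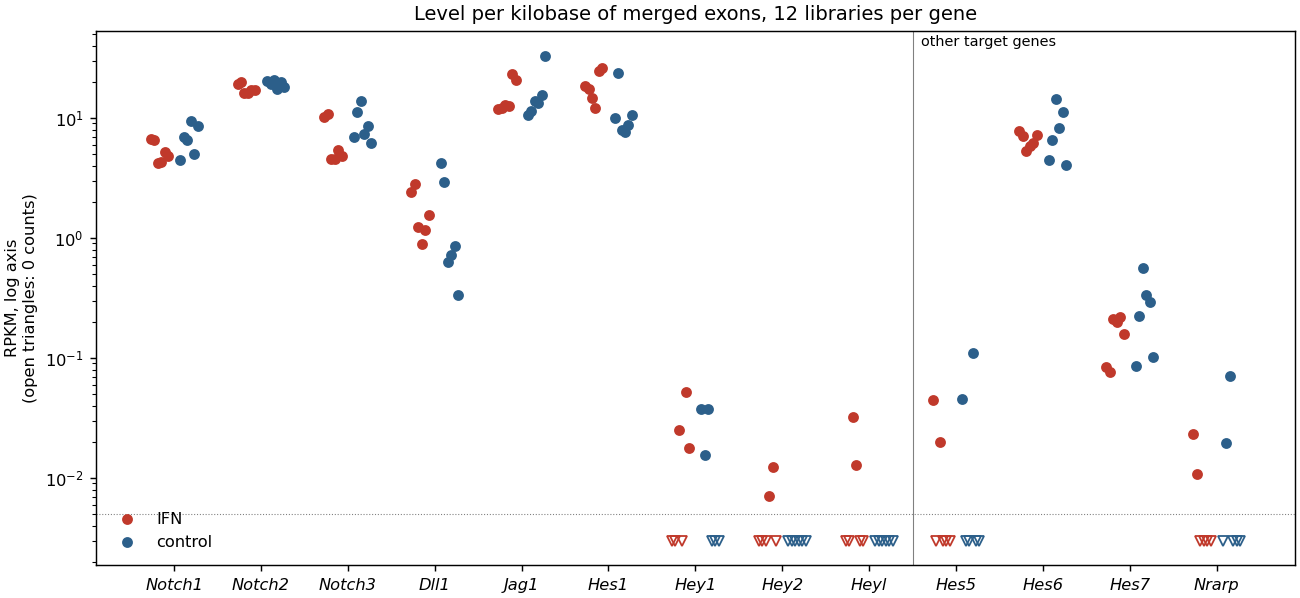
Level per kilobase of merged exons (RPKM, log axis) of the 9 genes and 4 other Notch targets, with 1 point per library, IFN in red to the left of control in blue; open triangles are libraries with 0 counts. Notch1, Notch2, Notch3, Jag1 and Hes1 lie well above Hey1, Hey2 and Heyl in every library, and Hes5 and Nrarp lie as low as the Hey genes.

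Among the receptors, Notch3 and Notch1 were lowest in the IFN libraries of day 14, and Notch2 hardly varied. Notch3 (mm10 chromosome 17, 32120820 to 32166852, minus strand), a receptor best known from vascular smooth muscle and pericytes, was at 81.7 and 86.6 CPM in IFN day 0 libraries, at 37.0 and 36.6 CPM at day 14 and at 43.5 and 38.7 CPM at day 21. In control it was at 55.9 and 90.0 CPM at day 0, at 112 and 59.3 CPM at day 14 and at 69.8 and 50.1 CPM at day 21. The IFN libraries of the later days lay below every other library, while the control days overlapped one another. In the IFN arm Notch3 fell at day 14 relative to day 0, by 1.19 ± 0.31 on the log2 scale (SE, edgeR quasi-likelihood test, Benjamini-Hochberg adjusted p = 0.0337). At day 21 against day 0 the value was -1.03 ± 0.31 and did not pass (adjusted p = 0.0580). It was called by DESeq2 (adjusted p = 0.0163) and without the filter on low counts (adjusted p = 0.000503), but not with RLE scaling or a block for replicate number. With only the groups compared it was also called (adjusted p = 3.57e-09), in a fit that called 4295 genes higher and 3936 lower of 15666. With 1 library left out the log2 value was -1.13 to -0.96. In control the log2 values were 0.23 at day 14 and -0.28 at day 21 against day 0.

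Against control, Notch3 averaged 36.8 ± 0.277 CPM in IFN and 85.7 ± 37.3 CPM in control libraries at day 14 (SD, n = 2 each), a log2 difference of -1.22 ± 0.31 that did not pass (edgeR adjusted p = 0.0767). At day 21 it averaged 41.1 ± 3.36 CPM in IFN and 59.9 ± 13.9 CPM in control libraries (log2 -0.54 ± 0.30, adjusted p = 0.480). The day 14 difference rested on control replicate 1, the library with high hypoxia genes: without it the log2 value was -0.69 and adjusted p = 0.533, and without control replicate 2 it was -1.61 with adjusted p = 0.0173. DESeq2 called this difference (adjusted p = 0.00534), as did edgeR without the filter on low counts (adjusted p = 3.52e-05). It was not called with RLE scaling, with only the groups compared or with a block for replicate number. The change over 14 days differed between IFN and control by -1.43 ± 0.43 on the log2 scale, which did not pass (adjusted p = 0.245). The call of Notch3 within the IFN arm was lost without either IFN day 0, either IFN day 14 or either IFN day 21 library (adjusted p 0.0555 to 0.192, with log2 values of -1.17 to -1.23).

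Of the 5 smooth muscle and pericyte markers Myh11, Cnn1, Acta2, Tagln and Rgs5, all with counts in each group, 2 fell in the IFN arm alongside Notch3. Acta2, a smooth muscle actin, had log2 values of -3.29 ± 0.54 at day 14 and -3.56 ± 0.54 at day 21 relative to day 0 (edgeR adjusted p = 0.00408 and 0.00304). Cnn1, a calponin of smooth muscle, had log2 values of -4.29 ± 0.86 and -3.07 ± 0.79 (adjusted p = 0.0107 and 0.0344). Myh11, Tagln and Rgs5 did not pass at either day, and the log2 values of Myh11 were positive, at 1.52 and 1.30. The sum of the 5 was 2952 to 2975 CPM in IFN day 0 libraries, 280 to 326 CPM at day 14 and 241 to 266 CPM at day 21. In control it was 3000 to 3018 CPM at day 0, 367 to 829 CPM at day 14 and 518 to 1849 CPM at day 21. Acta2 gave nearly all of it, at 237 to 3007 CPM over the 12 libraries, and the defining muscle myosin Myh11 was at 0.0302 to 1.18 CPM. The osteoblast markers summed to 6018 to 6458 CPM in IFN day 0 libraries, 1195 to 1204 CPM at day 14 and 1297 to 1355 CPM at day 21, against 2679 to 6074, 4082 to 6738 and 5260 to 9850 CPM in control. Col1a1 gave most of that sum, at 1083 to 9729 CPM over the 12 libraries. Runx2, the next highest of the list on average, was at 71.9 to 126 CPM, so the sum says little about the other markers. The part of either marker list in the Notch3 values was not tested. In bulk RNA, fewer cells of one kind and less RNA per cell cannot be told apart.

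Notch1 (chromosome 2, 26457903 to 26516663, minus strand), a receptor used in many developing tissues, was at 95.1 and 92.4 CPM in IFN day 0 libraries, at 60.1 and 60.8 CPM at day 14 and at 74.3 and 68.3 CPM at day 21. Its control levels were 63.7 and 99.6 CPM at day 0, 93.6 and 135 CPM at day 14 and 71.8 and 121 CPM at day 21. The groups separated at day 14 alone, with both IFN libraries below both control libraries. The log2 difference there was -0.92 ± 0.28 (edgeR adjusted p = 0.149), and DESeq2 placed it just past the threshold (adjusted p = 0.0469). It also passed in edgeR without control day 21 replicate 1 (adjusted p = 0.0263) or replicate 2 (adjusted p = 0.0277), and without control day 14 replicate 2 the log2 value was -0.63. At day 21 it was -0.44 ± 0.28 (adjusted p = 0.537). Notch1 shares exon bases with 0610009E02Rik, which had 10 to 38 counts per library, so a small share of its reads could belong to that gene.

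Notch2 (chromosome 3, 98013527 to 98150361, plus strand), a receptor with known roles in osteoclasts and the skeleton, had the narrowest range. It was at 205 and 214 CPM in IFN day 0 libraries, at 173 and 172 CPM at day 14 and at 185 and 184 CPM at day 21, and in control at 217 and 205, at 224 and 189 and at 213 and 195 CPM. The highest library was 1.30 times the lowest, against 2.25 times for Notch1, 3.07 times for Notch3 and 12.5 times for Dll1. Both IFN libraries lay below both control libraries at days 14 and 21, with log2 differences of -0.26 ± 0.15 and -0.15 ± 0.15 (edgeR adjusted p = 0.491 and 0.715).

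The ligand Dll1 fell in differentiating control cells, and its values in the IFN arm pointed the same way without passing. Dll1 (chromosome 17, 15367354 to 15376872, minus strand) encodes a Delta-type ligand presented to neighbouring cells. It was at 10.2 and 11.8 CPM in IFN day 0 libraries, at 5.20 and 3.77 CPM at day 14 and at 4.95 and 6.54 CPM at day 21. Control libraries were at 17.6 and 12.4 CPM at day 0, at 2.66 and 3.04 CPM at day 14 and at 3.59 and 1.41 CPM at day 21. Day 0 libraries lay above all later libraries in both arms, and the later IFN libraries lay above the later control libraries of the same day.

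In the IFN arm the log2 values of Dll1 were -1.29 ± 0.40 at day 14 and -0.93 ± 0.40 at day 21 relative to day 0, neither of which passed (edgeR adjusted p = 0.0677 and 0.170). The day 14 value was called by DESeq2 (adjusted p = 0.0105) and without the filter on low counts (adjusted p = 0.0117), but not with RLE scaling or a block for replicate number. With only the groups compared it was also called (adjusted p = 1.06e-08), in a fit that called 4712 genes higher and 4449 lower of 15603. With 1 library left out the log2 value at day 14 was -1.56 to -1.09. The day 21 value was called with only the groups compared (adjusted p = 0.000306), where 4295 genes were called higher and 3936 lower of 15666. It was not called by DESeq2 or without the filter, and with 1 library left out it was -1.16 to -0.76. In control, Dll1 fell by 2.39 ± 0.42 at day 14 and by 2.57 ± 0.42 at day 21 (adjusted p = 0.0168 and 0.00867). IFN libraries exceeded control by 0.66 ± 0.41 at day 14 and 1.19 ± 0.41 at day 21 (log2, adjusted p = 0.534 and 0.259); at day 0 the log2 value was -0.45. The change over 21 days differed between IFN and control by 1.64 ± 0.57, which did not pass (adjusted p = 0.531). Leaving out control day 21 replicate 1 kept only the library with high stress genes in that group. The day 21 difference was then 2.04 and the difference in change 2.49. Without control day 21 replicate 2 they were 0.67 and 1.12. The control call of Dll1 at day 14 was lost without control day 0 replicate 1 (adjusted p = 0.0915) or without either control day 14 library (adjusted p = 0.144 and 0.0616). The day 21 call held with each library left out, with log2 values of -2.06 without control day 21 replicate 2 and -3.44 without replicate 1, and was lost when control days 0 and 21 were fitted alone (adjusted p = 0.146). Without replicate 1 of control day 0 and replicate 2 of control day 21 together, the log2 values were -2.10 at day 14 and -1.78 at day 21, both called (adjusted p = 0.00146 and 0.0100); both values of the IFN arm were then called too (adjusted p = 0.00252 and 0.0130).

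Jag1 (chromosome 2, 137081456 to 137116644, minus strand), a Jagged-type ligand, rose late in control. It was at 68.6 and 69.8 CPM in IFN day 0 libraries, at 75.4 and 73.7 CPM at day 14 and at 134 and 120.3 CPM at day 21. In control it was at 61.1 and 66.9 CPM at day 0, at 80.4 and 78.0 CPM at day 14 and at 90.1 and 193 CPM at day 21. Both arms were highest at day 21, and the single highest library was control day 21 replicate 2, the one with high stress genes. With IFN the log2 value at day 21 relative to day 0 was 0.88 ± 0.28 and did not pass (edgeR adjusted p = 0.0708), although DESeq2 called it (adjusted p = 0.0350). In control, Jag1 rose by 1.14 ± 0.28 on the log2 scale over the same days (edgeR adjusted p = 0.0388).

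The control call of Jag1 depended on single libraries, and was lost when control days 0 and 21 were fitted alone (edgeR adjusted p = 0.362). Without control day 21 replicate 2 the log2 value was 0.50 and the call was lost. Without replicate 1, which left the library with high stress genes alone in that group, the log2 value was 1.57. Without replicate 1 of control day 0 and replicate 2 of control day 21 together it was 0.44, just past the threshold (adjusted p = 0.0465). The call was also lost with any of the other 10 libraries left out (adjusted p 0.0518 to 0.155). Between IFN and control at day 21 the log2 difference of Jag1 was -0.15 ± 0.27 (adjusted p = 0.860), and it turned to 0.49 without control day 21 replicate 2. In the IFN arm without that library the day 21 value was 0.88 and passed (adjusted p = 0.000572).

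**Figure D2:**
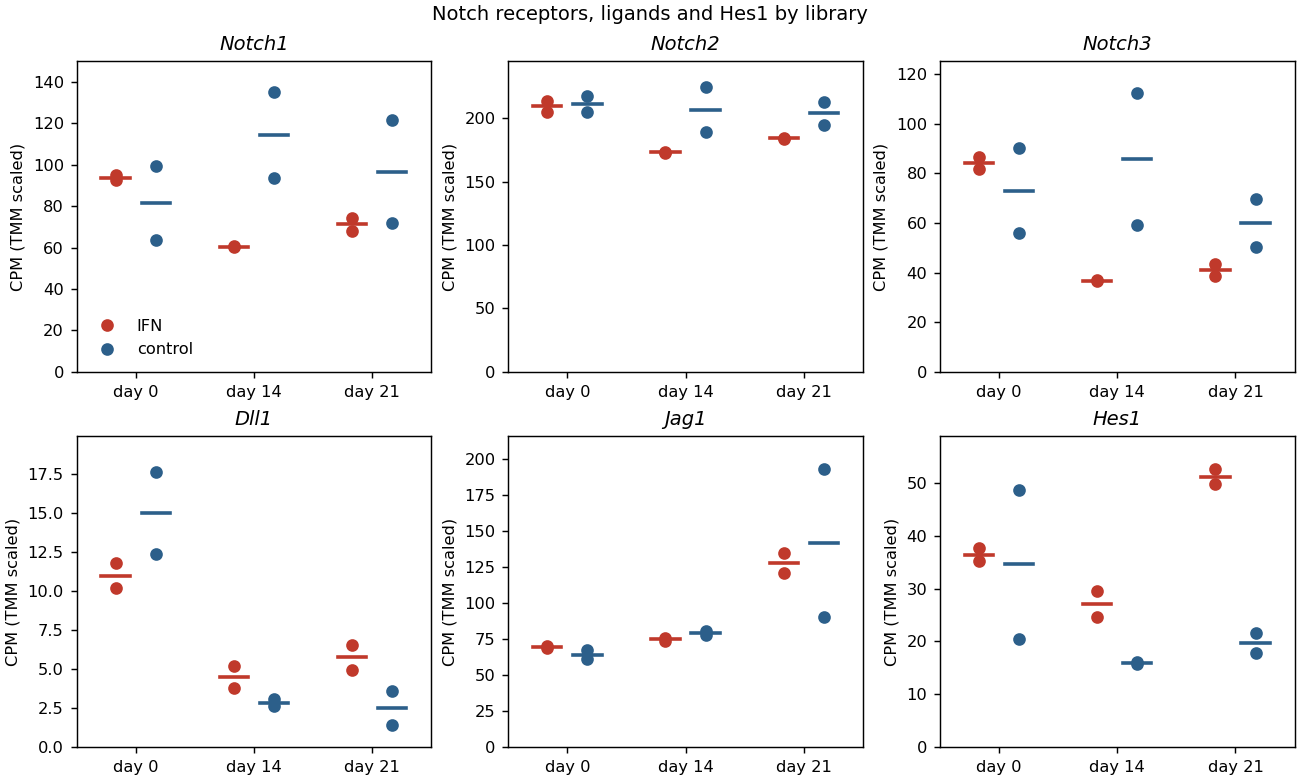
Level of the 6 tested genes in each library (CPM after TMM scaling, linear axes from 0), by day, with IFN in red to the left of control in blue; points are libraries and bars are group means. Notch1 and Notch3 are lowest in IFN at day 14, Dll1 is highest at day 0 in both arms, and Hes1 at day 21 is at 49.7 and 52.7 CPM with IFN, above both control libraries.

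Of the 4 targets, Hes1 alone had counts in every library, and its IFN libraries lay above control at both later days. Hes1 (chromosome 16, 30064384 to 30067796, plus strand) encodes a repressor that keeps precursor cells from differentiating in several tissues and that also responds to signals other than Notch. It was at 37.7 and 35.2 CPM in IFN day 0 libraries, at 29.6 and 24.6 CPM at day 14 and at 49.7 and 52.7 CPM at day 21. Control libraries held it at 20.5 and 48.7 CPM at day 0, at 16.1 and 15.7 CPM at day 14 and at 17.7 and 21.7 CPM at day 21. The control day 0 libraries enclosed both IFN day 0 libraries, and at each later day the IFN and control libraries did not overlap.

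At day 21, Hes1 averaged 51.2 ± 2.08 CPM with IFN and 19.7 ± 2.77 CPM in control (SD, n = 2 each). The log2 difference of 1.38 ± 0.33 did not pass across all genes (edgeR adjusted p = 0.103). DESeq2 called it (adjusted p = 0.00516), as did edgeR without the filter on low counts (adjusted p = 1.95e-05). It was not called with RLE scaling, with only the groups compared or with a block for replicate number. With 1 library left out the log2 value was 1.26 to 1.52. Without replicate 1 of control day 0 and replicate 2 of control day 21 together, the log2 value was 1.52 with adjusted p = 0.000729. At day 14 the difference was 0.77 ± 0.32 (adjusted p = 0.316). In the IFN arm, Hes1 had log2 values of -0.43 at day 14 and 0.49 ± 0.32 at day 21 against day 0 (adjusted p = 0.451 and 0.381). In control they were -1.12 ± 0.32 at day 14 and -0.81 ± 0.32 at day 21 (adjusted p = 0.110 and 0.143). These control values rested on which day 0 library was kept: without control day 0 replicate 1 they were -1.61 and -1.32, both called (adjusted p = 0.00635 and 0.0113), and without replicate 2 they were -0.37 and -0.07. DESeq2 called the day 14 value (adjusted p = 0.0236). Both were called without the filter on low counts (adjusted p = 0.00151 and 0.0263) and with replicate 1 of control day 0 and replicate 2 of control day 21 left out together (adjusted p = 0.000147 and 0.000764). The change over 21 days differed between IFN and control by 1.30 ± 0.45, which did not pass (adjusted p = 0.531) but did without the filter (adjusted p = 0.0265) and without those 2 libraries (log2 1.94, adjusted p = 0.00295).

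Hey1 (chromosome 3, 8663359 to 8667256, minus strand), Hey2 (chromosome 10, 30832359 to 30842801, minus strand) and Heyl (chromosome 4, 123233556 to 123249875, plus strand) encode repressors related to Hes1 that are known Notch targets in the vasculature and heart. Hey1 had 21 counts over all 12 libraries. The IFN libraries had 0 and 0 counts at day 0, 3 and 0 counts at day 14 and 6 and 2 counts at day 21, and the control libraries 4 and 2 counts, 4 and 0 counts, and 0 and 0 counts. A group with 0 counts allows up to 0.0433 CPM in IFN day 0 and 0.0489 CPM in control day 21, for counting error only. Heyl had 6 and 2 counts in the IFN day 14 libraries and 0 in the other 10, and Hey2 had 3 counts in all, 1 in an IFN day 14 library and 2 in an IFN day 21 library. These counts lie at the depth limit, and none of the 3 genes passed the threshold in a fit without the filter on low counts.

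Across the 6 tested genes, no IFN difference passed at any day, which with 2 libraries per group does not show that levels were equal. At day 0 none passed and 2 had groups that did not overlap, where 0.00578% of all 17289 genes passed and 36.2% did not overlap. At day 14 the edgeR test called 0 of 6, with 2.29% of all genes called. All 6 genes had groups that did not overlap, 2 higher and 4 lower with IFN. Of all genes 55.7% did not overlap, 28.6% higher and 27.1% lower. At day 21 it again called 0 of 6, with 0.995% of all genes called, and 4 of 6 did not overlap against 39.3% of all genes. At an unadjusted p under 0.05 there were 0 genes at day 0, 3 at day 14 (Notch3, Notch1 and Hes1) and 2 at day 21 (Hes1 and Dll1). Among all 17289 genes Hes1 ranked 2014 by p at day 14, and Dll1 988 at day 21. DESeq2 called 0, 2 and 1 members. Of all genes it called 0 higher and 1 lower of 17289 at day 0. At day 14 it called 385 higher and 613 lower of 14942, and at day 21 351 and 284 of 14942. The median log2 difference over the 6 was -0.17 at day 14 and -0.15 at day 21, beside -0.01 over all genes at both days.

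In the comparisons with day 0, 0 to 2 of the 6 genes passed, and a larger share of all genes was called there too than between IFN and control. In IFN, 1 of 6 was called at day 14 against day 0, where 10.7% of all genes were called. At day 21 it was 0 of 6, where 10.2% of all genes were called, with 3 at an unadjusted p under 0.05 and 2 by DESeq2. Dll1, the last of the 3, ranked 4003 by p, and DESeq2 called 1521 genes higher and 1250 lower of 17289. In control, 1 of 6 was called at day 14 against day 0, where 2.38% of all genes were called, and 2 of 6 at day 21, where 6.44% were. Between day 21 and day 14 no member was called in either arm, with 0% of all genes called in IFN and 0.0289% in control. At an unadjusted p under 0.05 there were 2 members in IFN (Hes1 and Jag1, ranked 399 and 427 by p) and 1 in control (Jag1, ranked 1080). DESeq2 called 0 members in both. Of all genes it called 102 higher and 12 lower of 13602 in IFN, and 511 and 333 of 14272 in control. The change from day 0 differed between IFN and control for 0 of 6 members at day 14 and 0 of 6 at day 21, where 0.596% and 0.0925% of all genes passed. The unadjusted test passed 2 members at each of these days, ranked 520 and 866 by p at day 14 and 486 and 505 at day 21. DESeq2 called 0 members. Of all genes it called 240 higher and 236 lower of 14272 at day 14, and 134 and 53 of 13937 at day 21. Within an arm, the comparisons of both later days with day 0 share the day 0 libraries.

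**Figure D3:**
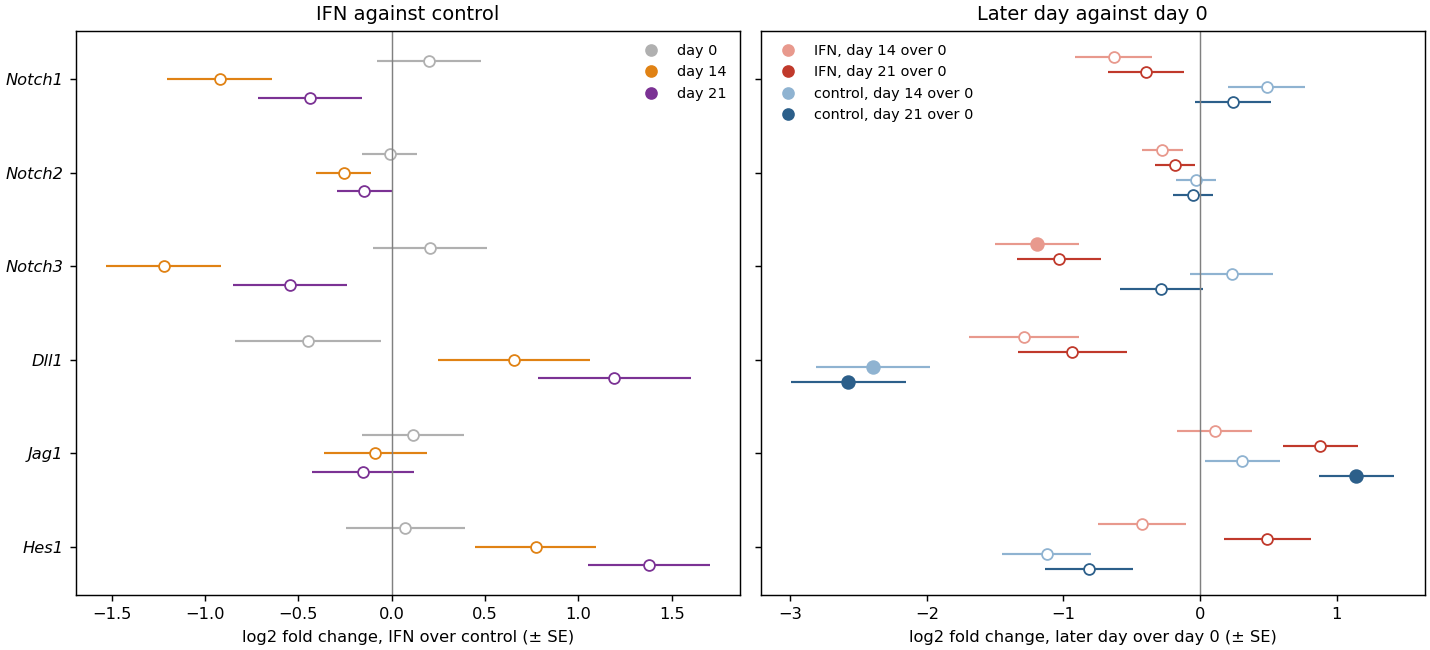
Fitted log2 fold changes (± SE) of the 6 tested genes, IFN over control by day at left and the later day over day 0 in each arm at right; filled points passed an edgeR adjusted p below 0.05. The filled points are Dll1 in control at both days, Jag1 in control at day 21 and Notch3 with IFN at day 14.

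Ordered by group mean, the 6 genes did not share one order. Notch1, Notch2 and Notch3 were lowest in IFN day 14 and next lowest in IFN day 21. For Notch2 and Notch3 the libraries of the 4 other groups overlapped their neighbours in the order, and the later IFN groups stood apart below them. Dll1 ran from control day 0 at the top through IFN day 0, IFN day 21, IFN day 14 and control day 14 to control day 21, with overlap between the later IFN groups and between the later control groups. Jag1 was highest in control day 21, which overlapped IFN day 21, and lowest in control day 0. Hes1 was highest in IFN day 21 and lowest in control day 14, and IFN day 0, control day 0 and IFN day 14 overlapped in the middle. Pearson's r of log2 CPM over the 12 libraries, which share 6 groups, was 0.869 between Notch2 and Notch3 and -0.652 between Dll1 and Jag1.

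The genes whose levels followed each member most closely over the 12 libraries, among 10893 candidates, are given by Pearson's r as a description. Notch3 was closest to Rcn3 (r = 0.979) and Emilin1 (r = 0.965), and Dll1 to Car13 (r = 0.969) and Lhx6 (r = 0.959). Notch1 was closest to Cped1 (r = 0.954) and Gas6 (r = 0.937), and Notch2 to Gpc1 (r = 0.955) and Car5b (r = 0.954). Jag1 was closest to Kif3c (r = 0.955) and Sgtb (r = 0.953), and Hes1 to Mef2a (r = 0.941) and Crebzf (r = 0.904).

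The rest of the pathway was read from a list of 50 genes, of which 44 were tested, covering other receptors and ligands, ligand endocytosis, receptor glycosylation and cleavage, the nuclear complex, co-repressors, turnover and further targets. None passed between IFN and control at any day by edgeR. At an unadjusted p under 0.05 there were 0 at day 0, 7 at day 14 and 2 at day 21. Of all 17289 genes, at least 2014 passed this at day 14 and at least 988 at day 21, the ranks by p of Hes1 and Dll1. DESeq2 called 0, 2 and 0 of the 44. Of all 14942 genes it called 385 higher and 613 lower at day 14, and 351 and 284 at day 21. Over time the share called was close to that of all genes. In IFN, 2 rose and 2 fell at day 14 against day 0, and 3 rose and 1 fell at day 21, which is 9.09% of the 44 at each day, beside 10.7% and 10.2% of all genes. In control, 1 rose and 1 fell at each of these days, which is 4.55% of the 44, beside 2.38% and 6.44% of all genes. When only the groups compared were fitted, the control calls of Dlk2 (adjusted p = 0.131) and Maml2 (adjusted p = 0.204) at day 14 and of Notch4 (adjusted p = 0.250) and Maml2 (adjusted p = 0.300) at day 21 were all lost. The median log2 value of the 44 lay between -0.06 and 0.08 in these comparisons of days with day 0, beside 0.00 to 0.01 over all genes.

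Notch4, the fourth receptor and one known chiefly from endothelium, was at 0.725 and 0.332 CPM in IFN day 0 libraries, at 4.496 and 4.479 CPM at day 14 and at 6.55 and 10.4 CPM at day 21. In control it was at 1.11 and 1.18 CPM at day 0, at 5.16 and 3.46 CPM at day 14 and at 9.89 and 2.81 CPM at day 21. All later libraries lay above all day 0 libraries. It rose with IFN by 3.08 ± 0.61 on the log2 scale at day 14 and by 4.0 ± 0.63 at day 21 relative to day 0 (edgeR adjusted p = 0.0104 and 0.00337), and in control by 2.47 ± 0.58 at day 21 (adjusted p = 0.0331). In control at day 14 the value was 1.91 ± 0.57 (adjusted p = 0.120). The control call was lost without control day 21 replicate 1 (log2 1.26, adjusted p = 0.0617) and without 6 other single libraries, and both IFN calls were lost without IFN day 0 replicate 2 (adjusted p = 0.120 and 0.0525). The IFN call at day 14 was also lost without either IFN day 14 library (adjusted p = 0.0575 and 0.0556). Per length Notch4 stayed below the other receptors, at 0.523 RPKM over the 12 libraries.

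Dll4, a Delta ligand also known from vessels, rose with IFN at day 21 relative to day 0 by 2.53 ± 0.71 on the log2 scale (adjusted p = 0.0488), at 0.911 and 0.980 CPM at day 21 and 0.242 and 0.0830 CPM at day 0. These were 34 counts at most per library, and 9 of the 12 fits that left out a library lost the call. In control its value over the same days was 1.73 ± 0.68 (adjusted p = 0.142). The endothelial markers Pecam1, Cdh5, Kdr, Tek and Emcn summed to 1.45 to 2.02 CPM in IFN day 21 libraries and 1.03 to 1.83 CPM in IFN day 0 libraries, and to 1.78 to 4.07 CPM in control day 21 and 1.76 to 2.12 CPM in control day 0 libraries. Cdh5 was at 0 in IFN day 0 and day 14, and Emcn in IFN day 21 and in control days 14 and 21. Their part in the Notch4 and Dll4 values was not tested.

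Maml2, a Mastermind co-activator of the Notch nuclear complex, was at 54.7 and 60.7 CPM in IFN day 0 libraries, at 32.4 and 33.7 CPM at day 14 and at 25.9 and 29.8 CPM at day 21. The control levels were 71.1 and 59.8 CPM at day 0, 27.1 and 40.8 CPM at day 14 and 29.2 and 35.0 CPM at day 21. Every day 0 library lay above every later library. It fell with IFN by 0.81 ± 0.21 at day 14 and by 1.05 ± 0.21 at day 21, and in control by 0.95 ± 0.21 and by 1.03 ± 0.21 at the same days (log2, edgeR adjusted p = 0.0379, 0.0122, 0.0489 and 0.0227). The control call at day 21 was lost without control day 0 replicate 1 (adjusted p = 0.0883). Of the 12 fits that left out a library, the IFN call at day 14 held in 6, the IFN call at day 21 in 8 and the control call at day 14 in 3.

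Dlk2, a Delta-like protein thought to act on Notch as a non-canonical ligand, rose at day 14 relative to day 0 by 1.62 ± 0.32 with IFN and by 1.64 ± 0.32 in control (log2, edgeR adjusted p = 0.0105 and 0.0280). With IFN it was at 12.3 and 10.5 CPM at day 14 and at 3.72 and 3.68 CPM at day 0, and in control at 19.8 and 11.9 CPM at day 14 and at 5.11 and 5.06 CPM at day 0. At day 21 it rose with IFN by 1.35 ± 0.32 (adjusted p = 0.0247), and the control value of 1.14 ± 0.32 did not pass (adjusted p = 0.0589). Aph1b, a subunit of the gamma-secretase that frees the receptor's intracellular domain, fell with IFN at day 14 by 1.05 ± 0.24 (adjusted p = 0.0221), at 9.94 and 9.67 CPM at day 14 and 19.1 and 21.5 CPM at day 0, while its control value was -0.04 ± 0.24. The day 14 calls of both genes with IFN were lost without any 1 of the 4 libraries compared, and those of Dlk2 in control at day 14 and with IFN at day 21 were lost in 7 and 5 of the 12 fits that left out a library.

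**Figure D4:**
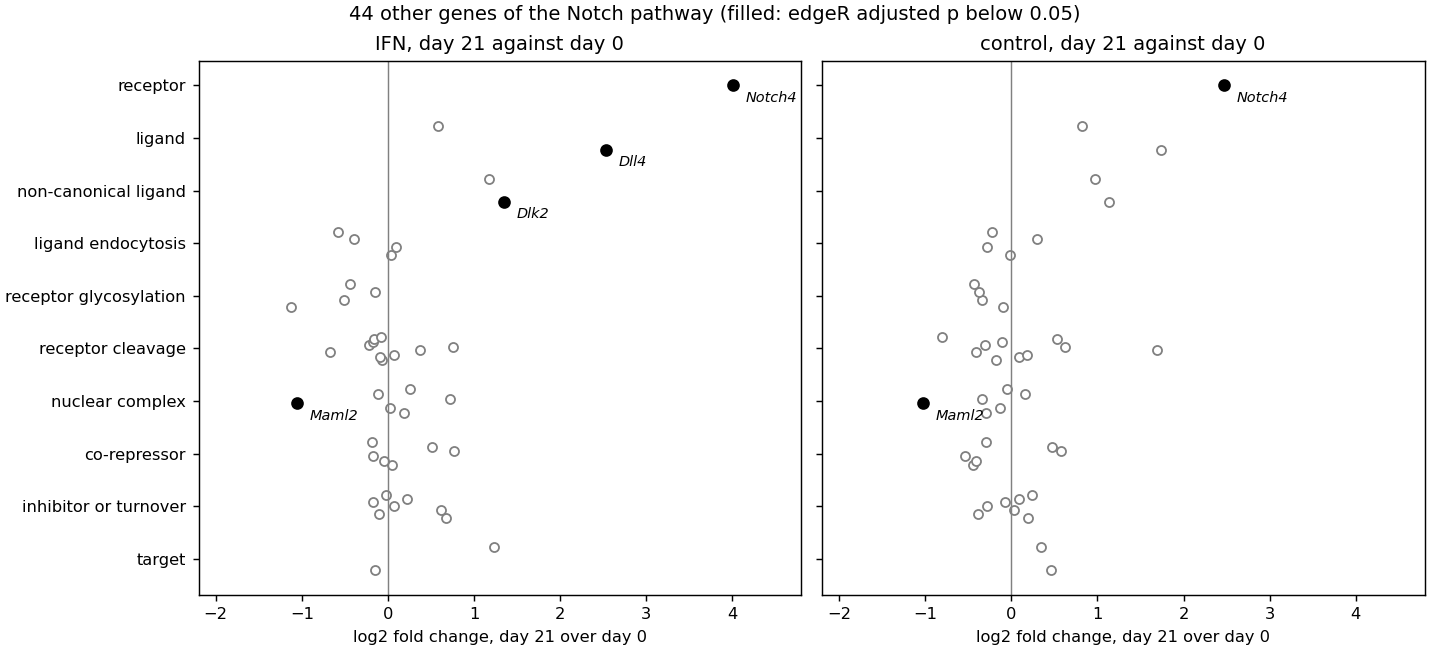
Log2 fold change of 44 other Notch pathway genes at day 21 against day 0, grouped by role, with IFN at left and control at right; each point is a gene and filled points passed an edgeR adjusted p below 0.05. Most points lie within 1 log2 unit of 0, with Notch4 highest and Maml2 lowest among the filled points in both arms.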

How the data were processed

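RNA libraries of MC3T3-E1 cells were made from bead-purified mRNA. Per the submitters' processing notes the authors used HISAT2, SAMtools and featureCounts with mm10, without versions, and deposited raw counts of reads per gene symbol and library; the annotation and the use of strand are not given in the sources used here, so genes that share exons (positions from GENCODE M21) are uncertain. Groups followed the labels' arm and day.

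From these counts, genes were kept by filterByExpr over the 6 groups (17289 genes) and scaled by TMM in edgeR 4.0.16 (R 4.3.3). Robust quasi-likelihood tests used 1 mean per group, all 12 libraries and 6 residual degrees of freedom, with Benjamini-Hochberg adjustment over all genes kept. Called, rose and fell mean an adjusted p below 0.05, and SE is the log2 fold change divided by the root of F. CPM uses the TMM-scaled library size, RPKM also the GENCODE M21 merged exon length, and correlations log2 CPM with a prior count of 2. A floor is 3 counts per group and, like all counting limits, covers counting error only. The procedure was tested on simulated data.

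The 9 genes, the pathway and marker lists and the tests were chosen with earlier results of these data known. Pathway genes were named if called, at most 6 per comparison with the smallest adjusted p. The 2 genes most like each member were taken by Pearson's r among named genes whose mean log2 CPM reached 1. Further targets in the level comparison, CT010467.1 and the libraries set apart were named after values were seen. Alternatives were RLE scaling, DESeq2 1.42.0, no filter on low counts, only the groups compared, a replicate block, each library left out, and replicate 1 of control day 0 and replicate 2 of control day 21 left out together. For the pathway list these alternatives were added after seeing the data.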

Additional observations from a re-analysis of the deposited data

How the results depend on the processing

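For the 6 tested genes and 11 comparisons there were 66 log2 values and 1188 alternative values, of which 1050 kept direction and side of the threshold, 23 lost a call, 79 gained one and 36 changed sign, none of them a called value. RLE scaling changed no count of called members. DESeq2 called 2 members at day 14 and 1 at day 21 for IFN against control, 2 for control day 14 against day 0, 2 for IFN day 14 and 2 for IFN day 21 against day 0. Without the filter on low counts the numbers were 2, 1, 2, 2 and 2 for these comparisons, 3 for control day 21 against day 0 (2 as reported), 1 for control day 21 against day 14, and 2 and 1 for the change from day 0 to days 14 and 21 between IFN and control. Of all genes, DESeq2 called 707 higher and 536 lower of 16618 for control day 14 against day 0. For IFN day 14 against day 0 it called 1405 and 1508 of 15948. Without the filter, 1628 of 33962 genes were called higher and 1147 lower for control day 21 against day 0. With only the groups compared, 5 members were called for IFN day 14 and 6 for IFN day 21 against day 0, 3 for IFN day 21 against day 14 and 0 for control day 21 against day 0. Of all genes, that setting called 4712 higher and 4449 lower of 15603 for IFN day 14 against day 0. For IFN day 21 it called 4295 higher and 3936 lower of 15666 against day 0, and 2430 and 2072 of 15564 against day 14. For control day 21 against day 0 it called 23 higher and 2 lower of 15444. The replicate block left 1 call of 2 for control day 21 against day 0 (Jag1 adjusted p = 0.0525) and changed no other call of a member; among pathway genes it lost Maml2 in control at day 14 (adjusted p = 0.0521; 0.0508 with RLE scaling) and Dll4 with IFN at day 21 (adjusted p = 0.0692). The labels do not say what a replicate number marks. Over 15 pairs of groups the correlation of deviations was -0.0511 to 0.110, which cannot show that the samples were unpaired. With replicate 1 of control day 0 and replicate 2 of control day 21 both left out, those groups kept 1 library each. More members were then called than as reported for IFN against control at days 14 and 21 and for both changes. The same held for days 14 and 21 against day 0 in each arm and for IFN day 21 against day 14. In each of these comparisons more of all genes were called than as reported too. Leaving out each library in turn gave 0 to 2 calls for IFN against control at days 14 and 21, 0 to 0 at day 0, 0 to 1 for control day 14 and 1 to 2 for control day 21 against day 0, 0 to 1 for control day 21 against day 14, 0 to 2 and 0 to 3 for IFN days 14 and 21 against day 0, 0 to 1 for IFN day 21 against day 14, and 0 to 0 and 0 to 2 for the changes. Sign changed with only the groups compared for Notch2 in control day 21 against day 14 (log2 0.000544). With both libraries left out, IFN against control turned at day 0 for Notch1 (-0.0876), Notch2 (0.0312), Notch3 (-0.10) and Hes1 (-0.42) and at day 21 for Jag1 (0.49, adjusted p = 0.0318). In control it turned for Notch2 (0.0274) and Notch3 (-0.0547) at day 14 against day 0, for Notch1 (-0.46) and Notch2 (0.0636) at day 21 against day 0, and for Notch2 (0.0362) and Dll1 (0.33) at day 21 against day 14. The change to day 21 between IFN and control turned for Notch1 (0.0666) and Jag1 (0.44). With single libraries left out, log2 values crossed 0 for IFN against control at day 0 in Notch1 (-0.0811 to 0.56), Notch2 (-0.0504 to 0.0375), Notch3 (-0.0917 to 0.59) and Hes1 (-0.41 to 0.83), and at day 21 in Jag1 (-0.58 to 0.49). They crossed 0 for control day 14 against day 0 in Notch2 (-0.16 to 0.0858) and Notch3 (-0.30 to 0.62), and for control day 21 against day 0 in Notch1 (-0.18 to 0.59), Notch2 (-0.14 to 0.0195) and Notch3 (-0.60 to 0.0919). The same held for control day 21 against day 14 in Notch1 (-0.68 to 0.0566), Notch2 (-0.15 to 0.10), Notch3 (-0.91 to 0.00479) and Dll1 (-1.05 to 0.33), and for the changes in Hes1 at day 14 (-0.0586 to 1.16) and Jag1 at day 21 (-0.69 to 0.38). For the 44 other pathway genes, only the groups compared gave 31 calls for IFN day 14 against day 0 (4 as reported), 23 for IFN day 21 against day 0 (4 as reported) and 17 for IFN day 21 against day 14 (0 as reported), but 0 for control days 14 and 21 against day 0 (2 as reported at each). These stand beside the calls over all genes in that setting given above, and 83 higher and 22 lower of 15331 for control day 14. DESeq2 called 7 and 5 of the 44 for IFN days 14 and 21 against day 0. Of all genes it called 1405 higher and 1508 lower of 15948, and 1521 and 1250 of 17289. For control days 14 and 21 against day 0 it called 4 each. Of all 16618 genes it called 707 higher and 536 lower, and 1509 and 1081. Without the filter the most calls were 7, for IFN day 21 against day 0, where 1488 of 33962 genes were called higher and 1136 lower. Fits with libraries left out kept 1 library in a group. In the comparisons with day 0 they called from fewer to more pathway genes than as reported. Between IFN and control at days 14 and 21, and for control day 21 against day 14, some called more. Where their calls were highest, more of all genes were called than as reported too. The cause of these differences was not tested. Between the 2 libraries of a group, the SD of log2 CPM had a median of 0.08 to 0.11 in IFN and 0.24 to 0.44 in control, and the shared spread of the fit averages over both. A fit without a library assumes that the lone sample varies like the other groups. With 2 libraries per group, differences of the size seen for Hes1 and Notch3 stood near the threshold, and Hey1, Hey2 and Heyl could not be compared at this depth.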
